A study of Mus musculus with 24 samples.

Results

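The genes of 8 amino acid carriers of the blood-brain barrier, Slc7a5, Slc3a2, Slc7a1, Slc38a3, Slc38a5, Slc6a6, Slc1a1 and Slc1a4, were taken by gene symbol from a table of 53465 genes. All 8 were listed once and all 8 passed the filter on low reads, as did 15493 genes in all. The question was whether the partners of Slc7a5 share its time of day. RNA was sequenced from endothelial cells, the cells that line the vessels, sorted from the brain of single mice with an antibody to CD31 (Pecam1). Control mice were Bmal1fl/fl, with both copies of the clock gene Bmal1 (listed as Arntl) flanked by loxP sites and no Cre. Mutant mice were Bmal1fl/fl; Tie2-cre, in which Cre from the Tie2 (Tek) promoter deletes a floxed exon of Bmal1. Tie2 is active in endothelium and also in blood cell lineages, so the deletion is not limited to brain vessels. Both groups were labelled C57BL/6J, received no drug, were fed freely and were kept in equal hours of light and dark, with lights on at ZT0 and off at ZT12 (ZT, zeitgeber time in hours). The study used male and female mice, and neither age nor sex was in the labels used here. Mice were taken every 4 h from ZT2 to ZT22, with 2 control and 2 mutant mice each time, or 12 libraries per genotype.

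The endothelium of brain vessels is closed by tight junctions, so amino acids enter the brain through carriers in its membranes. Slc7a5 encodes LAT1, the exchanger of large neutral amino acids such as leucine, phenylalanine and tryptophan, which also carries the drug L-DOPA and thyroid hormones. LAT1 reaches the membrane only together with 4F2hc (CD98), the glycoprotein encoded by Slc3a2, to which a disulfide bond links it. The glycoprotein also serves as the heavy chain of other light chains of the SLC7 family. The remaining members work without that heavy chain: Slc7a1 encodes CAT1, the carrier of cationic amino acids such as arginine and lysine, Slc38a3 and Slc38a5 encode the sodium-coupled glutamine carriers SNAT3 and SNAT5, Slc6a6 the taurine transporter, Slc1a1 the glutamate transporter EAAT3 and Slc1a4 the neutral amino acid transporter ASCT1.

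The deposited values were reads per gene that the authors had brought to similar totals, 6136404 to 6648311 per library, so the sequencing depth itself is not in them. All 7 endothelial marker genes checked were detected in every group and their summed reads lay between 64490 and 104835 per library. The 8 libraries of ZT6 and ZT18, which carry a run of library numbers of their own in the labels, stood apart. Mitochondrially encoded genes took 2.68% to 3.90% of their reads against 5.78% to 17.4% in the other 16 libraries, the 6 microglial markers (Cx3cr1, P2ry12, Tmem119, Csf1r, Aif1, Itgam) summed to 487 to 939 reads against 5770 to 16425, and the endothelial markers to 95587 to 104835 against 64490 to 91783. Astrocyte marker sums were 4431 to 7347 reads against 9816 to 19707 and oligodendrocyte sums 2210 to 4458 against 5215 to 17961, with no overlap, while pericyte and smooth muscle sums, 14559 to 23321 against 9467 to 18337, overlapped. The times ZT6 and ZT18 and that run of libraries cannot be told apart. Another 3 libraries, control ZT2 replicate 1 and both mutant ZT14 mice, have numbers far from all others, and what the numbers stand for is not given in the sources used here. Since these include every mutant mouse of ZT14, several results are also given without the 3, a choice made after the data were seen. Arntl, the targeted gene, had 1 to 468 reads in control mice, with a median of 166.5, and 81 to 354 in mutant mice, with a median of 242.5. Its daily swing was present in control mice, with 439, 466, 468 and 234 reads in the mice of ZT2 and ZT22 against 1, 22, 15 and 13 in those of ZT10 and ZT14. In mutant mice the same times had 243, 259, 242 and 205 reads against 120, 169, 251 and 354, which overlap. Gene totals include reads outside the deleted exon, so the level of Arntl does not measure the deletion. In sorted bulk cells, fewer cells of a type and less RNA per cell cannot be told apart.

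Slc7a5 and its heavy chain Slc3a2 both had their highest mean around dusk and their lowest around dawn. In mutant mice the highest mean was that of the ZT14 pair, whose libraries are numbered apart. Of the remaining times Slc7a5 was highest at ZT10 (7565 reads), and Slc3a2 at ZT18 (2854 reads, against 2621.5 at ZT10), which is not dusk. The fitted swing of Slc3a2 was smaller, with an amplitude 44.6% of that of Slc7a5. Of the pair only Slc7a5, whose rhythm was known beforehand, passed the 24-h test over all genes. None of the other 6 carriers passed that test, which called 0.503% of all genes. They did not pass the test of dusk against dawn either, where 0.626% of all genes were called higher at dusk. At such low shares these counts do not set the carriers apart from other genes. Slc38a5 and Slc6a6 had their fitted peaks early in the light phase, though that of Slc6a6 in mutant mice carried an SE of 3.6 h. No member differed between control and mutant mice in level or in rhythm by the tests adjusted over all genes. Those tests called 0.271% of all genes in level and 0 of 15493 in rhythm, so this count does not set the members apart.

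Slc7a5 (ENSMUSG00000040010, GRCm38 chromosome 8, 121881150 to 121907694, minus strand) had the following reads in control mice: 5682 and 5790 for the ZT2 pair, 7589 and 7185 for the ZT6 pair, 7941 and 9401 for the ZT10 pair, 7384 and 8243 for the ZT14 pair, 6064 and 6520 for the ZT18 pair and 4172 and 5073 for the ZT22 pair. In mutant mice they were 4724 and 4315 for the ZT2 pair, 6822 and 7237 for the ZT6 pair, 7004 and 8126 for the ZT10 pair, 7896 and 10500 for the ZT14 pair, 5145 and 5615 for the ZT18 pair and 4919 and 4073 for the ZT22 pair. In both genotypes every mouse of ZT10 and ZT14 (called dusk) was above every mouse of ZT22 and ZT2 (called dawn). Such a separation with dusk above dawn was seen in 1.83% of all genes in control mice and in 1.85% in mutant mice. The mean at dusk was 1.59 times that at dawn in control mice and 1.86 times in mutant mice, or 1.68 times with the ZT10 pair alone as dusk. By edgeR's model the difference between dusk and dawn was 0.83 on the log2 scale (SE 0.10, 8 dusk and 8 dawn mice). This is given without a test, because these times were chosen with the level of Slc7a5 known.

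Slc3a2 (ENSMUSG00000010095, chromosome 19, 8706882 to 8723369, minus strand) had the following reads in control mice: 2655 and 2652 for the ZT2 pair, 2570 and 2703 for the ZT6 pair, 2494 and 3551 for the ZT10 pair, 2704 and 2819 for the ZT14 pair, 2483 and 2491 for the ZT18 pair and 1982 and 2397 for the ZT22 pair. In mutant mice they were 2158 and 2155 for the ZT2 pair, 2185 and 2467 for the ZT6 pair, 2217 and 3026 for the ZT10 pair, 3128 and 3247 for the ZT14 pair, 2822 and 2886 for the ZT18 pair and 2246 and 2234 for the ZT22 pair. The highest mean was at ZT10 in control mice and at ZT14 in mutant mice, as for Slc7a5, and dusk and dawn mice overlapped in both genotypes. In control mice a single ZT10 mouse with 3551 reads stood above all others, and in mutant mice 1 of the 4 dusk mice, with 2217 reads, was within the dawn range of 2155 to 2246.

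**Figure D1:**
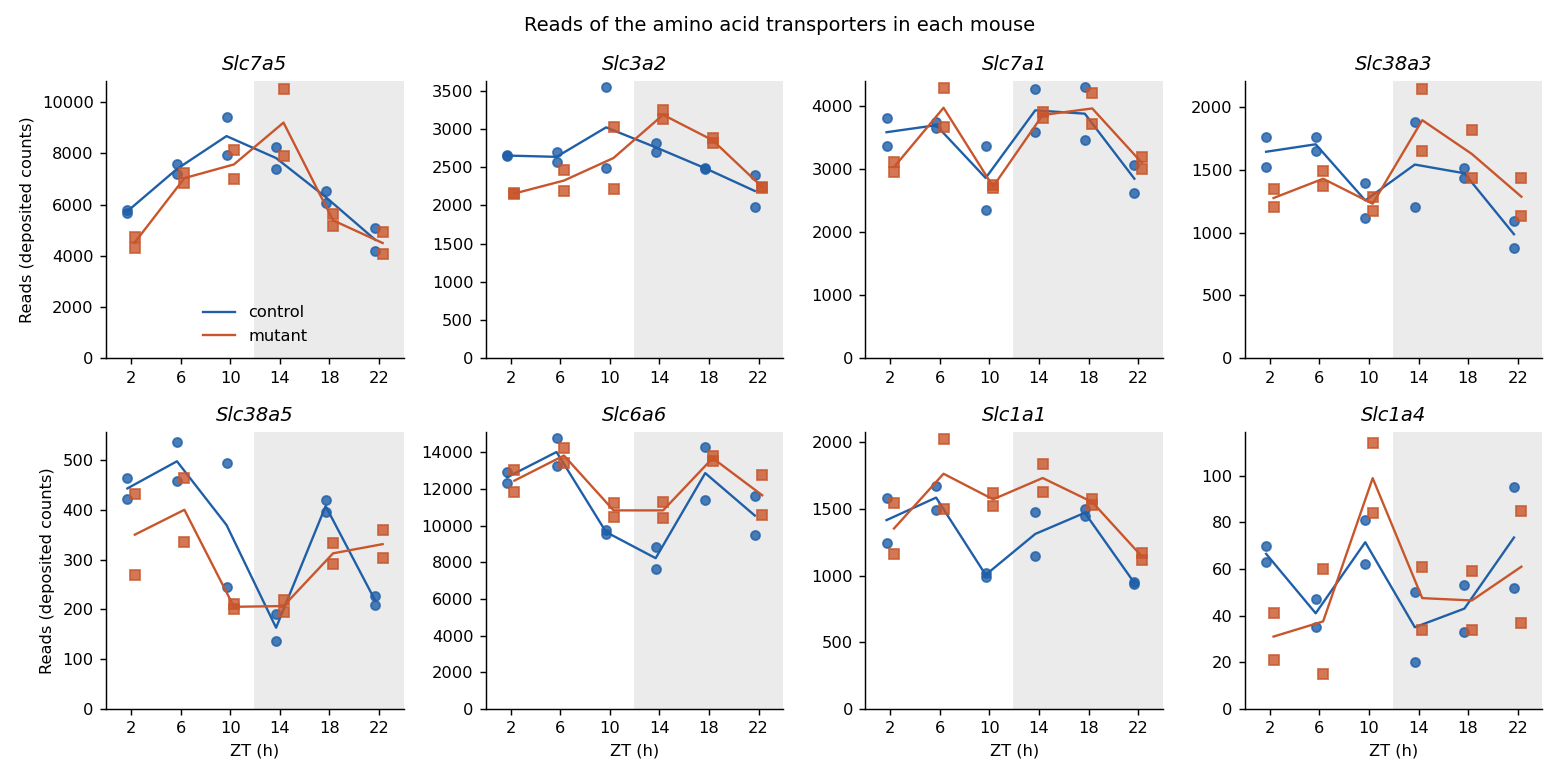
Deposited reads (vertical axes, from 0, a scale for each gene) against ZT in hours for the 8 transporters. Each point is 1 mouse (circles control, squares mutant, 2 per time point and genotype), lines join the means and grey marks the dark hours. Slc7a5 runs from 4172 to 9401 reads in control mice and from 4073 to 10500 in mutant mice, with its lowest means at ZT22, and Slc3a2 spans a narrower relative range.

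The 24-h pattern was tested in 3 ways. By meta2d, which combines JTK_CYCLE and the Lomb-Scargle periodogram within a genotype, 1 of 8 members was called rhythmic in control mice at q under 0.6, the study's threshold, beside 0.31% of all genes. That member was Slc7a5 (p = 3.2e-05, q = 0.153, meta2d with the exact null of JTK_CYCLE), whose rhythm was known beforehand, and it was also the one member with an unadjusted p under 0.05, beside 2.43% of all genes. Its call ended when tied time points were kept tied (q = 1) and when control ZT2 replicate 1 (q = 0.698) or control ZT2 replicate 2 (q = 0.72) was left out. By the same test with its exact null, Slc3a2 had p = 0.168 in control mice and the remaining members had p-values of 0.39 to 1. In mutant mice 0 of 8 members were called, beside 0.0387% of all genes. The paper names an amino acid transporter, written Slc7a5a, among genes rhythmic in mutant as well as control mice. At this threshold Slc7a5 was not called here in mutant mice. At an unadjusted p under 0.05, 2 of 8 passed in mutant mice, against 2.27% of all genes. They were Slc7a5 (p = 0.00231, q = 0.762) and Slc3a2 (p = 0.00464, q = 1), again with the exact null of JTK_CYCLE. Without both mutant ZT14 mice the p of Slc3a2 was 0.178 and that of Slc7a5 0.00485, by the same meta2d with the exact null of JTK_CYCLE. The count of 0 was not stable: at the same threshold of 0.6, 1 member was called after TMM scaling (Slc3a2, beside 0.155% of all genes), with JTK_CYCLE alone (0.361%), with 10 or more reads required in every mouse (0.413% of 10415 genes) and with an edgeR cosinor without (0.194%) or with a replicate block (0.148%), the member being Slc7a5 in each of the last 4. In the edgeR cosinor the adjusted p of Slc7a5 in mutant mice was 0.161, and 0.265 with the block, so neither passed 0.05.

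Over all 24 mice, with a 24-h cosine fitted by edgeR's quasi-likelihood method and genotype as a covariate, 1 of 8 members passed an adjusted p under 0.05, beside 0.503% of all genes. Slc7a5 had a fitted amplitude, the height of the peak above the mean, of 0.49 on the log2 scale, with the peak at ZT11.2 (adjusted p = 2.72e-05, edgeR). Its rhythm was known beforehand from these same data, so its call is no independent evidence for that rhythm. Slc3a2 came next, with an amplitude of 0.22, a peak at ZT12.8 and an unadjusted p of 0.00104, which ranked 107 of 15493 genes and did not pass (adjusted p = 0.15, edgeR). The call of Slc3a2 depended on the tool and on 1 mouse. It passed with DESeq2 (adjusted p = 0.0244), which called 0.807% of all genes, and without mutant ZT10 replicate 1, the dusk mouse with 2217 reads (adjusted p = 0.0468, edgeR), where 0.516% were called. Without the 3 libraries numbered apart it did not pass (adjusted p = 0.709, edgeR), while Slc7a5 did (adjusted p = 0.000608), beside 0.194% of all genes. Over the 33 alternatives the adjusted p of Slc3a2 ranged from 0.0244 to 0.709. At an unadjusted p under 0.05, 3 of 8 members passed (Slc7a5, Slc3a2 and Slc38a5), beside 5.18% of all genes.

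Cosines fitted to log2(normalized reads + 1) in each genotype gave the size and time of the swing with its error. Slc7a5 had an amplitude of 0.45 ± 0.05 with a peak at ZT10.9 ± 0.4 h in control mice and 0.53 ± 0.08 with a peak at ZT11.4 ± 0.6 h in mutant mice (estimate ± SE, n = 12 each). For Slc3a2 the amplitude was 0.20 ± 0.06 with a peak at ZT10.8 ± 1.2 h in control mice, and 0.28 ± 0.05 with a peak at ZT14.3 ± 0.7 h in mutant mice. In mutant mice without the ZT14 pair, whose libraries are numbered apart, Slc3a2 had 0.25 ± 0.07 with a peak at ZT14.3 ± 0.8 h and Slc7a5 0.45 ± 0.07 with a peak at ZT10.8 ± 0.6 h (n = 10). With all mice, the fitted peak of Slc3a2 was thus 0.16 h before that of Slc7a5 in control mice and 2.89 h after it in mutant mice. The shift of Slc3a2 between genotypes was not past the threshold (rhythm difference, unadjusted p = 0.0865, adjusted p = 1.00, edgeR).

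**Figure D2:**
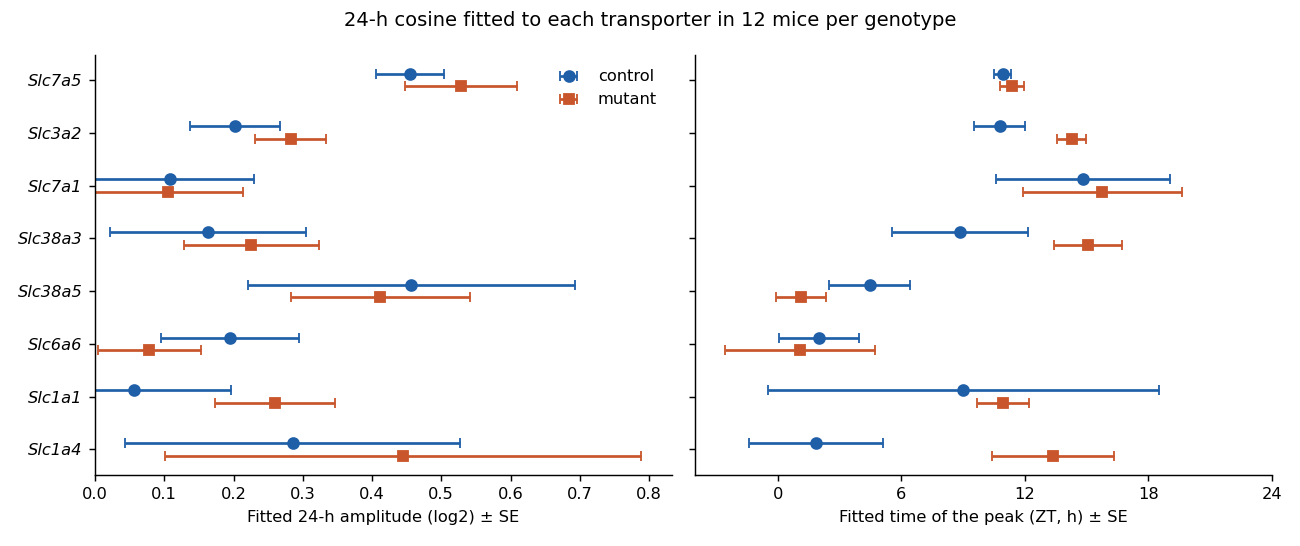
Amplitude on the log2 scale (left) and peak time in ZT hours (right) of the 24-h cosine fitted to each transporter in 12 control (circles) and 12 mutant mice (squares), with bars of 1 SE. The peaks of Slc7a5, at ZT10.9 and ZT11.4, carry the smallest errors, and those of Slc1a1 in control mice (9.5 h) and Slc7a1 (4.2 and 3.9 h) are not fixed by the data. Those of Slc6a6 in mutant mice (3.6 h), Slc38a3 in control mice (3.3 h) and Slc1a4 (3.2 and 3.0 h) are nearly as loose.

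Because LAT1 and 4F2hc work as a pair, the reads of Slc7a5 were divided by those of Slc3a2 in each mouse, a ratio that does not depend on how libraries are scaled. In control mice the ratio was 2.14 and 2.18 for the ZT2 pair, 2.95 and 2.66 for the ZT6 pair, 3.18 and 2.65 for the ZT10 pair, 2.73 and 2.92 for the ZT14 pair, 2.44 and 2.62 for the ZT18 pair and 2.10 and 2.12 for the ZT22 pair. In mutant mice it was 2.19 and 2.00 for the ZT2 pair, 3.12 and 2.93 for the ZT6 pair, 3.16 and 2.69 for the ZT10 pair, 2.52 and 3.23 for the ZT14 pair, 1.82 and 1.95 for the ZT18 pair and 2.19 and 1.82 for the ZT22 pair. Every dusk mouse lay above every dawn mouse of its genotype, which is a description, since these times were chosen with the level of Slc7a5 known. The rhythm of Slc7a5 was known too, so the test that follows is no independent evidence for it and bears only on whether Slc3a2 moved in the same proportion. The log2 ratio had a fitted amplitude of 0.31 with a peak at ZT10.0 (permutation test of the time points within genotype, p = 1e-05, the smallest that 100000 permutations can give). In control mice alone the amplitude was 0.25 (permutation p = 0.00118) and in mutant mice alone 0.38 (permutation p = 0.00511). Without the ZT6 and ZT18 libraries it was 0.27 and no longer passed (permutation p = 0.0562, 16 mice), and without the 3 libraries numbered apart it was 0.29 (permutation p = 0.00044, 21 mice). Both ZT18 mutant mice had a lower ratio than both ZT18 control mice, a difference that was not tested.

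**Figure D3:**
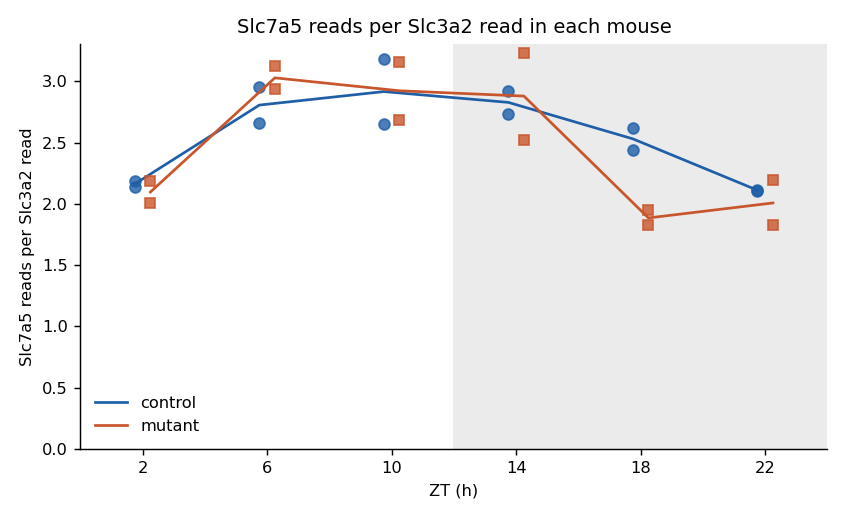
Slc7a5 reads per Slc3a2 read (vertical axis, from 0) against ZT in hours. Each point is 1 mouse (circles control, squares mutant), lines join the means and grey marks the dark hours. Dawn mice (ZT22 and ZT2) lie between 1.82 and 2.19 and dusk mice (ZT10 and ZT14) between 2.52 and 3.23.

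The test of dusk against dawn was the direct question to the 7 partners, and 0 of 7 passed it, beside 0.626% of all genes that were higher at dusk at an adjusted p under 0.05. Slc3a2 was nearest, with a difference of 0.38 on the log2 scale (SE 0.10, unadjusted p = 0.00114, adjusted p = 0.116, edgeR, 16 mice). It passed with DESeq2 (adjusted p = 0.0208), which called 1.05% of all genes in either direction, and without mutant ZT10 replicate 1 (adjusted p = 0.0452, edgeR), where 0.742% were called. Without the 3 libraries numbered apart its difference was 0.32 (adjusted p = 0.652, edgeR), and 0.278% of all genes were called. At an unadjusted p under 0.05, 3 of 7 partners passed (Slc3a2, Slc6a6 and Slc38a5, of which Slc3a2 alone was higher at dusk), beside 6.32% of all genes. The estimate of Slc3a2 was 0.33 in control mice (SE 0.15) and 0.43 in mutant mice (SE 0.15). Its difference between genotypes was 0.09 (SE 0.21, adjusted p = 0.989, edgeR), and 0.0077 to 0.20 without single mice. Of the 7 partners 5 had estimates above 0 and their median was 0.17, while over all genes 48.1% were above 0 and the median was -0.01. Mitochondrial shares overlapped between dusk (5.78% to 17.4%) and dawn libraries (6.92% to 14.3%), as did the summed reads of each of the 7 marker lists in each genotype. Both mutant ZT14 libraries, which are numbered apart, had higher endothelial marker sums, 90562 and 91783. The remaining mutant dusk and dawn libraries had 72357 to 83831. The part of this in the dusk values of mutant mice was not tested.

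**Figure D4:**
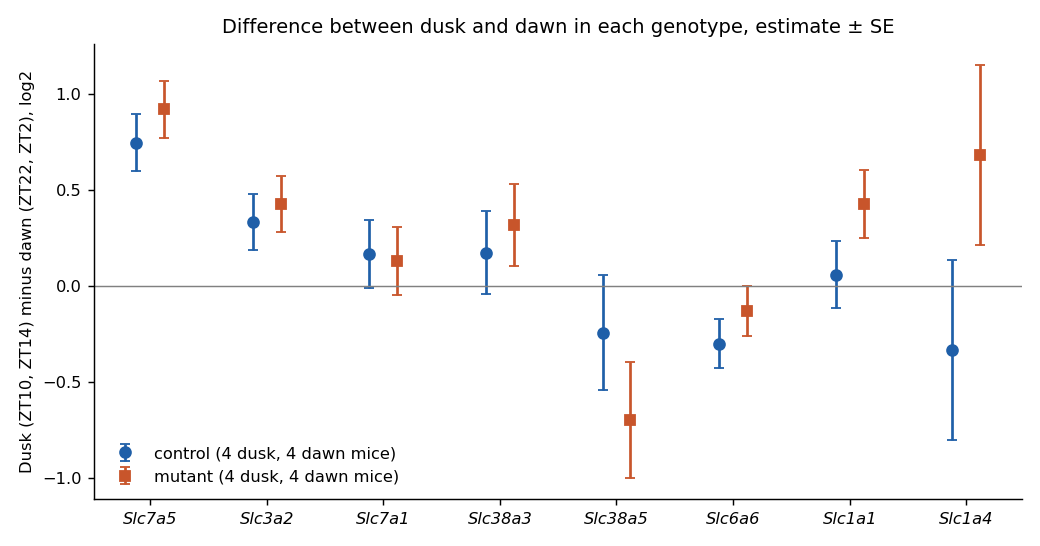
Difference between dusk (ZT10 and ZT14) and dawn (ZT22 and ZT2) on the log2 scale, as edgeR estimated it in 4 dusk and 4 dawn mice of each genotype, with bars of 1 SE. Slc7a5 lies at 0.75 in control and 0.92 in mutant mice, Slc3a2 at 0.33 and 0.43, and Slc38a5 and Slc6a6 lie below 0 in both genotypes.

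The estimates of Slc38a5 and Slc6a6 had the opposite sign and did not pass the test. Slc38a5 (ENSMUSG00000031170, chromosome X, 8271133 to 8280179, plus strand), the carrier SNAT5 for glutamine, serine and glycine, had 244, 495, 136 and 190 reads in the 4 control mice of dusk and 422, 464, 209 and 226 in those of dawn. In mutant mice it had 210, 200, 219 and 194 reads at dusk and 269, 431, 359 and 303 at dawn. Control mice overlapped, and in mutant mice every dusk mouse was below every dawn mouse, as was so for 2.01% of all genes. The difference was -0.47 on the log2 scale (SE 0.21, unadjusted p = 0.037, adjusted p = 0.723, edgeR) and ran from -0.71 to -0.40 without single mice, and the 24-h fit put its peak at ZT2.8 (unadjusted p = 0.0222, adjusted p = 0.756, edgeR). Of the 8 members it had the widest relative spread in control mice, with a coefficient of variation of 39.6% over 12 mice.

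Slc6a6 (ENSMUSG00000030096, chromosome 6, 91684053 to 91759066, plus strand) encodes the carrier of taurine and had the most reads on average. Control mice had 9524, 9770, 7637 and 8806 reads at dusk and 12341, 12928, 11591 and 9506 at dawn, so that 1 dawn mouse reached into the dusk range. Mutant mice had 11220, 10442, 11265 and 10393 reads at dusk and 11847, 13058, 12746 and 10565 at dawn, which also overlap. The difference was -0.22 on the log2 scale (SE 0.09, unadjusted p = 0.0265, adjusted p = 0.667, edgeR). The 24-h fit over both genotypes put its peak at ZT1.6 and did not pass (unadjusted p = 0.146, edgeR). At ZT6 and ZT18 Slc6a6 was read 11414 to 14770 times in control and 13408 to 14242 times in mutant mice, on average 1.31 and 1.20 times its mean in the other libraries of the genotype. A gene of uncertain coding status on the same strand, Gm45828, overlaps Slc6a6 and was itself given 74.4 reads on average in control mice.

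Slc7a1, Slc38a3, Slc1a1 and Slc1a4 had unadjusted p-values of 0.0716 to 0.622 for dusk against dawn over both genotypes (edgeR). Slc7a1 (ENSMUSG00000041313, chromosome 5, 148327410 to 148399904, minus strand) ranged from 2349 to 4292 reads in control mice, with a median of 3519.5, and from 2700 to 4274 in mutant mice, with a median of 3423.5. Its ZT10 means, 2853.5 and 2717.5, were below those of ZT14, 3925 and 3851. The difference between dusk and dawn was 0.15 (SE 0.12, adjusted p = 0.981, edgeR), and 0.079 to 0.22 without single mice.

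Slc38a3 (ENSMUSG00000010064, chromosome 9, 107650634 to 107669530, minus strand), whose product SNAT3 carries glutamine, histidine and asparagine, ranged from 878 to 1878 reads in control mice (median 1472.5) and from 1134 to 2144 in mutant mice (median 1402.5). Its difference between dusk and dawn was 0.24 (SE 0.15, adjusted p = 0.892, edgeR), and 0.14 to 0.33 without single mice. Slc1a1 (ENSMUSG00000024935, chromosome 19, 28835049 to 28913960, plus strand) ranged from 937 to 1675 reads in control mice (median 1346.5) and from 1117 to 2026 in mutant mice (median 1536.5). For this glutamate carrier the difference was 0.24 (SE 0.13, adjusted p = 0.842, edgeR), made up of 0.06 in control mice (SE 0.18) and 0.43 in mutant mice (SE 0.18, unadjusted p = 0.024, adjusted p = 0.999, edgeR). The 4 mutant mice of dusk had 1526, 1619, 1630 and 1835 reads and those of dawn 1543, 1164, 1172 and 1117, so that 1 dawn mouse reached into the dusk range. With the ZT14 pair left out the mutant estimate was 0.33 (adjusted p = 1.00, edgeR). The difference between genotypes was 0.37 (SE 0.25, adjusted p = 0.892, edgeR). The control estimate turns on the scaling, since the deposited reads at dusk were 0.982 times those at dawn. On the opposite strand Slc1a1 overlaps 4430402I18Rik, which had 26.2 reads on average in control mice. Slc1a4 (ENSMUSG00000020142, chromosome 11, 20302180 to 20332713, minus strand) had only 20 to 95 reads in control mice (median 52.5) and 15 to 114 in mutant mice (median 50). Its estimate for dusk against dawn was 0.17 with an SE of 0.34, the largest SE of the 8, and it ran from 0.0084 to 0.34 without single mice.

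When each time point was allowed its own level instead of a cosine, 7 of 8 members differed among the 6 times at an adjusted p under 0.05, all but Slc1a4 (edgeR), beside 13.4% of all genes. Without the ZT6 and ZT18 libraries, a choice made after the data were seen, 1 of 8 did, Slc7a5, beside 1.14% of all genes. Slc6a6, Slc1a1, Slc38a5, Slc7a1 and Slc38a3 had 1.07 to 1.52 times as many reads on average in the ZT6 and ZT18 libraries as in the others of their genotype, Slc7a5 and Slc3a2 0.963 to 1.02 times and Slc1a4 0.682 and 0.704 times. The part in this of the higher endothelial and pericyte and lower microglial, astrocyte and oligodendrocyte marker sums of those libraries was not tested.

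The genotypes were compared at the same 6 times. At ZT2 and ZT10 all control libraries shared an i5 index (the second part of the library barcode) and all mutant libraries carried another. Index and genotype cannot be told apart at those times. In level 0 of 8 members differed at an adjusted p under 0.05 by edgeR, 1 of 8 at an unadjusted p under 0.05 and 0 of 8 by DESeq2, while 0.271% of all genes passed the first, 6.95% the second and 0.6% the third. The member with the unadjusted p was Slc1a1, higher in mutant mice by 0.25 on the log2 scale (SE 0.08, unadjusted p = 0.00386, adjusted p = 0.331, edgeR). For Slc7a5 the difference, mutant minus control, was -0.11 (SE 0.07) and for Slc3a2 -0.04 (SE 0.07). In the difference between dusk and dawn 0 of 8 members differed between genotypes by edgeR, 0 at an unadjusted p under 0.05 and 0 by DESeq2, beside 0.0258% of all genes adjusted, 5.86% unadjusted and 0.148% by DESeq2. In rhythm 0 of 8 differed by edgeR, 0 at an unadjusted p under 0.05 and 0 by DESeq2, beside 0 of 15493 genes adjusted, 4.26% unadjusted and 0.00645% by DESeq2. For Slc7a5 the dusk to dawn difference was 0.17 larger in mutant mice (SE 0.21, adjusted p = 0.965, edgeR), and 0.030 to 0.26 larger without single mice. Without the 3 libraries numbered apart this genotype difference was -0.04, mutant minus control (adjusted p = 0.996, edgeR).

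Divided by the length of all their exons, the members differed widely in level. Slc7a5 had 1821 ± 398 reads per kb in control mice and 1716 ± 516 in mutant mice (SD, n = 12 each), Slc6a6 1339 ± 270 and 1444 ± 168, and Slc3a2 744 ± 102 and 727 ± 120. Next came Slc7a1 with 300.1 and 297.9, Slc38a3 with 272 and 276, Slc1a1 with 156 and 184 and Slc38a5 with 156 and 134, and Slc1a4 was last with 14.0 and 13.7. Per length, therefore, the light chain Slc7a5 was above its heavy chain Slc3a2 in every mouse. Some neighbours in the order did not separate. Slc7a5 was above Slc6a6 in 11 of 12 control but 6 of 12 mutant mice, Slc7a1 above Slc38a3 in 9 of 12 of each genotype, and Slc1a1 above Slc38a5 in 6 of 12 control and 10 of 12 mutant mice. The other 4 steps held in 12 of 12 mice of each genotype.

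**Figure D5:**
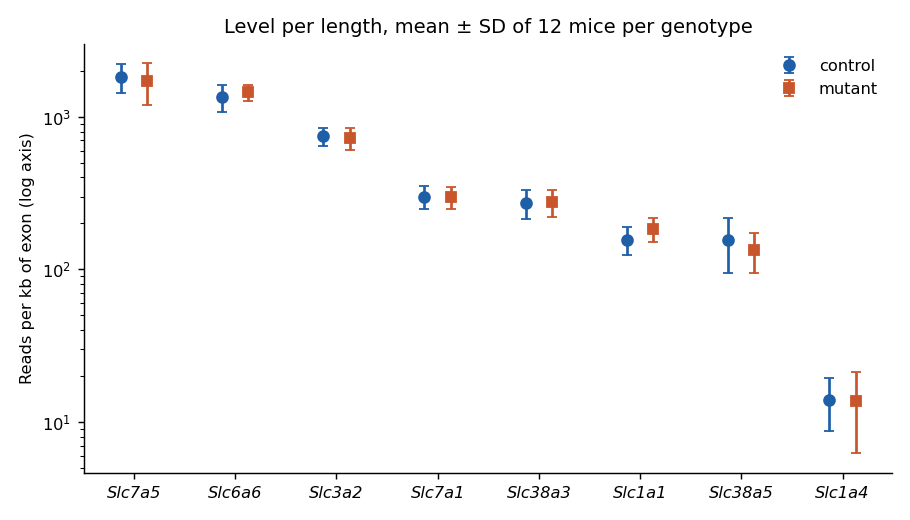
Reads per kb of exon (log axis) of the 8 transporters in order of their control mean, as the mean and SD of 12 control (circles) and 12 mutant mice (squares). Slc7a5 leads with 1821 and 1716 reads per kb and Slc1a4 is lowest with 14.0 and 13.7.

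Among 46 other amino acid transporter genes, 26 passed the filter. The 5 highest per length in control mice were Slc1a2 (610 reads per kb) and Slc1a3 (129), the glutamate transporters of astrocytes, Slc38a10 (108), Slc38a2 (105), the amino acid-regulated carrier SNAT2, and Slc6a20a (53.3), a proline carrier. In the 24-h test over both genotypes 0 of 26 passed by edgeR, 3 of 26 at an unadjusted p under 0.05, beside 5.18% of all genes, and 0 by DESeq2. For dusk against dawn 0 of 26 passed by edgeR, 1 at an unadjusted p, beside 6.32% of all genes, and 0 by DESeq2. For level between genotypes the counts were the same, beside 6.95% of all genes at an unadjusted p. The median difference between dusk and dawn of these 26 genes was -0.04, near the median of all genes. It was -0.16 in control mice, with 17 genes below 0, and 0.083 in mutant mice, with 21 above 0. The medians over all genes were -0.017 and -0.0057. Mutant minus control, the median was 0.37, with 22 genes above 0 and 4 below, against a median of 0.018 over all genes. Some of the largest estimates rest on few reads. Slc7a10, at 1.84, had 68.3 reads on average in control and 52.25 in mutant mice. None of the 26 passed that genotype test at an adjusted p, and the genes were not tested as a set.

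In likeness to Slc7a5 over the 24 mice, measured by Pearson's r of log2(CPM + 1), where CPM scales the reads to a fixed library total, Slc3a2 ranked 32 of 15492 genes (r = 0.76). The libraries share their times and their preparation, so r is a description and carries no test. Slc38a3 ranked 205 (r = 0.53), Slc1a1 447 (0.42), Slc7a1 936 (0.33), Slc1a4 5141 (0.07), Slc38a5 12141 (-0.18) and Slc6a6 14103 (-0.29), where the median over all genes was -0.02. The 5 genes most like Slc7a5 were Pik3ip1 (0.93), Eftud2 (0.91), Gatm (0.90), Zbtb16 (0.87) and Paqr5 (0.87), none of them an amino acid carrier. Without the ZT6 and ZT18 libraries r was 0.89 for Slc3a2, at rank 16, and -0.56 for Slc6a6. Without the 3 libraries numbered apart the same 5 genes led, and r was 0.71 for Slc3a2 (rank 49), 0.42 for Slc38a3 (569), 0.34 for Slc1a1 (1017), 0.27 for Slc7a1 (1690), 0.07 for Slc1a4 (5121), -0.02 for Slc38a5 (7609) and -0.25 for Slc6a6 (13159). Among the members, Slc38a5 and Slc6a6 were alike (r = 0.67), and so were Slc7a1 and Slc38a3 (0.72), Slc38a3 and Slc1a1 (0.65) and Slc3a2 and Slc38a3 (0.62). Slc7a1 and Slc1a4 ran opposite ways (-0.60). Slc38a5, Slc6a6, Slc7a1, Slc38a3 and Slc1a1 had more reads on average in the ZT6 and ZT18 libraries, and the part of this in r was not tested.

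Promoters were searched for letters that clock factors and ATF4, the factor of the amino acid response, are known to bind, as a description of the members. The RefSeq windows used (GRCm38.p6, 250 bases before to 50 after a start) covered 5 of the 8 members with 6 windows: Slc7a1, Slc3a2, Slc38a5, Slc1a1 and Slc1a4. Slc7a5, Slc38a3 and Slc6a6 were not searched here. The E-box CACGTG, which reads the same on both strands and is bound by BMAL1 with CLOCK, was in 7.15% of all 32817 windows and in that of Slc38a5 alone among the members. The D-box TTATGTAA (0.935% of windows) and the ROR element RORE (0.219%) were in none of the 6 on either strand. The ATF4 composite element TGATGNAA (3.97%) was in that of Slc1a4, on the strand opposite to the gene and across the start. The stretches with these matches are shown 5′ to 3′ on the strand of the gene, with the matched letters in capitals; the first lies at chrX:8271281-8271380 on the plus strand and ends 1 base before the RefSeq start, and the second lies at chr11:20332708-20332767 on the minus strand. The RefSeq start of Slc38a5, 8271381, is 248 bases downstream of the start of the gene as counted, 8271133, so the printed stretch and its E-box lie inside the counted gene. For Slc1a4 both starts are the same base.
Slc38a5: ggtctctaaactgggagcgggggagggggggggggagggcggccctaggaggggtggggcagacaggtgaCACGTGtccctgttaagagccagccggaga
Slc1a4: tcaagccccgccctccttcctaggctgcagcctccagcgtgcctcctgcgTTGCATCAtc
The Slc3a2 window held none of the 4 motifs, which says only that these letters are not in its 300 bases, around a start 9472 bases downstream of that of the gene as counted. The start of Slc1a1 lies 86 bases downstream, and those of the 2 windows of Slc7a1 lie at the counted start and 7089 bases downstream.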

How the data were processed

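RNA-seq libraries of sorted brain endothelial cells from 24 mice were used. Per the study's methods, the authors aligned reads to GRCm38 with STAR 2.5.3a, merged lanes with SAMtools 1.3.1, and deposited read counts per Ensembl gene after gene-level normalization with PORT; libraries were strand-specific, and whether counting used strand is not given in the sources used here. A gene was kept when at least 6 mice of a genotype had 5 or more of its reads. Counts were tested with edgeR 4.0.16 (TMM, quasi-likelihood, R 4.3.3) on all 15493 genes with Benjamini-Hochberg adjustment, and with DESeq2 1.42.0 as an alternative. Meta2d was rewritten in Python 3.11.15 with the study's settings. At q under 0.6 it called 48 genes in control mice, a few more than the paper reports. Exon lengths came from GENCODE. The ratio used a pseudocount of 1. P-values measure the spread between mice. Scripts were tested on simulated data with less spread between mice than edgeR's common estimate for these data. Those runs therefore do not measure power here. Alternatives were other scalings, filters, tools and thresholds, a replicate block, the i5 index, and leaving out mice, time points or libraries numbered apart.

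The members, the gene lists and the motifs were chosen with earlier results of these data known. Named genes are the 8 members, other transporters past the threshold in an edgeR test (in the main tests none was, and those named passed with time as a factor), the 5 highest of them per length, the 5 genes most like Slc7a5, and Arntl. Outside this rule, the microglial markers and 2 genes that overlap members were named after their values were seen.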

Additional observations from a re-analysis of the deposited data

Results flagged for a closer look

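In 48 groups of 4 mice (each member at dusk, at dawn, and at ZT6 with ZT18, by genotype), the gap of an extreme mouse to its neighbour exceeded Dixon's 95% limit for 4 values in 2. Both concern Slc1a1 in mutant mice. At dawn 1 ZT2 mouse had 1543 reads beside 1117, 1164 and 1172. At ZT6 and ZT18 1 ZT6 mouse had 2026 reads beside 1503, 1530 and 1574. Chance alone gives such a gap in about 1 in 20 groups.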

How the results depend on the processing

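Slc7a5, whose rhythm was known beforehand, was called in the 24-h test over both genotypes under every alternative run. In the 3 genotype tests no member was called at an adjusted p under 0.05 under any of them, and Slc1a1 passed in level at an unadjusted p. The count of members with a 24-h rhythm was 2 with DESeq2, which called 0.807% of all genes. With time as a factor, which takes any difference among times and not a 24-h wave alone, 7 members were called, beside 13.4% of all genes. It also called 6 of the other 26 transporters (Slc1a2, Slc1a3, Slc38a1, Slc38a2, Slc7a10, Slc7a8). Of these, Slc1a2 and Slc1a3 had unadjusted p-values of 0.945 and 0.936 in the 24-h cosine (edgeR). The factor test takes in the ZT6 and ZT18 libraries, which stood apart. The count higher at dusk includes Slc7a5, whose known level set the times, and was 2 with DESeq2 and 0 in mutant mice alone without the libraries numbered apart, which leaves 2 dusk mice. Leaving out single mice gave 1 to 2 members in both tests, the second being Slc3a2 without mutant ZT10 replicate 1. By meta2d in control mice the count was 0 with tied time points kept tied, and 0 to 1 without single mice, with 0 when either control ZT2 mouse (replicate 1 or 2) was left out, and 0 without the 3 libraries numbered apart. In mutant mice it was 1 after TMM scaling (Slc3a2), with JTK_CYCLE alone, with 10 or more reads required in every mouse, and with an edgeR cosinor with or without a replicate block (Slc7a5 in these 4, all at 0.6, where 0.148% to 0.413% of all genes were called; at 0.05 the edgeR cosinor called 0), and 2 at an unadjusted p. The amplitude of the Slc7a5 to Slc3a2 ratio was 0.27 without the ZT6 and ZT18 libraries (permutation p = 0.0562) and 0.29 to 0.33 without single mice. The causes were not tested. In the 250 bases before the start alone, the Slc1a4 window held no ATF4 element.

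Some estimates that passed no test changed sign. In control mice alone the dusk to dawn difference of Slc1a4 was -0.34, and in mutant mice alone without the libraries numbered apart it was -0.17 for Slc7a1 and -0.058 for Slc38a3. Without scaling, the genotype difference of the dusk to dawn difference of Slc7a1 was 0.071, and without single mice it ran from -0.19 to 0.11 for Slc7a1, from -0.065 to 0.33 for Slc38a3 and from -0.67 to 0.018 for Slc38a5. Without the 3 libraries numbered apart, which leaves no mutant mouse at ZT14, it was -0.041 for Slc7a5, -0.12 for Slc3a2 and -0.30 for Slc38a3, and the level difference was 0.0087 for Slc7a1 and -0.0032 for Slc38a3. The i5 index differed between the genotypes at ZT2 and ZT10. With it as a covariate the level difference was 0.050 for Slc3a2, 0.044 for Slc7a1, 0.041 for Slc38a5 and 0.017 for Slc1a4. Without single mice it ran from -0.044 to 0.021 for Slc7a1, from -0.019 to 0.060 for Slc38a3 and from -0.20 to 0.030 for Slc1a4.

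Replicate numbers come from the labels, which do not say what they mark. The study describes 2 independent experiments, and whether the numbers mark these is not given in the sources used here. Deviations of same-numbered mice correlated across genes from -0.08 to 0.19 over 66 pairs of groups (median 0.02), so the numbers were not taken as pairs. With the replicate block, 1 member was called in the 24-h test and 0 of the 7 partners at dusk, the ratio amplitude was 0.31 (permutation p = 3e-05), and the block changed no call in the edgeR tests. With 2 mice per time and genotype, small differences could not be detected.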
